A study of Mus musculus with 8 samples.

Results

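The matrix metalloproteinases (MMPs), the ADAMTS proteinases and the tissue inhibitors of metalloproteinases (TIMPs) were followed in RNA-seq of laser-captured endometrium, the inner layer of the uterus. The members were chosen by symbol alone: Mmp with a number, Adamts with a number, or Timp1 to Timp4. This gave 46 genes of 52325 in the deposited table, of which 23 were MMPs, 19 were ADAMTS genes and 4 were TIMPs. The tissue was dissected by laser from frozen sections, and came from 4 WT and 4 Thra1PV/+ females that had been synchronized in metestrus, the phase after ovulation. In Thra1PV/+ mice 1 allele of Thra holds the PV mutation in every cell of the body, and the mutant thyroid hormone receptor TRα1 that it encodes acts as a dominant negative. The other allele is WT, and no drug treatment is given for either group. The ages of the mice used for these libraries are not stated in the sources used here. The labels number 4 libraries for each genotype, so p-values measure the spread between these libraries.

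MMPs are zinc-dependent enzymes that cut collagens, laminins, proteoglycans and other proteins around cells. Most are secreted as inactive proenzymes, whereas the membrane-type MMPs are anchored at the cell surface. ADAMTS proteinases are secreted enzymes with thrombospondin repeats that cut proteoglycans such as versican, trim procollagens or cleave von Willebrand factor. TIMPs bind the active site of these enzymes, and TIMP2 also takes part in the activation of MMP2 by MMP14. In the uterus these enzymes take part in the remodelling of stroma and glands over the reproductive cycle.

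The members lie on 17 chromosomes of GRCm38 (the mm10 build), as located in GENCODE M21. Of these, 10 MMP genes form a single cluster of 427.1 kb on chromosome 9, from 7272514 to 7699585, in the order Mmp13, Mmp12, Mmp1b, Mmp3, Mmp1a, Mmp10, Mmp8, Mmp27, Mmp20 and Mmp7. RefSeq promoter windows of 300 bases, from 250 bases before the start to 50 bases after it, were available for 32 of the 46 members, in 35 windows. The AP-1 motif TGANTCA (N is any base, both strands searched) lay in the windows of 8 of 10 cluster genes and of 0 of the other 22 members with a window, where 7.81% of all 32851 RefSeq windows hold it. The letters TATAAA lay in 9 of 10 cluster genes and 2 of the other 22 (13.6% of all windows), and the GC box GGGCGG in 0 of 10 cluster genes and 18 of the other 22 (35.7% of all windows). The nuclear receptor half-site AGGTCA lay in the windows of Mmp10, Mmp12, Mmp1a and Mmp1b (16.3% of all windows). A direct repeat of it with 4 bases between, the DR4 arrangement, lay in none of the members' windows (0.0152% of all windows). A match describes letters and not a bound site. The 5 windows below belong to Mmp15, Mmp28, Mmp10 and Mmp23, which showed no overlap between the genotypes, and to Mmp3. DESeq2, a second test used further on, called Mmp3 as lower. Adamts10 (no overlap) and Adamts8 (called by DESeq2) had no window available. The windows shown were chosen after the values were seen, and capitals mark these motifs on either strand.
Mmp15 (chr8:95352046-95352345, plus strand): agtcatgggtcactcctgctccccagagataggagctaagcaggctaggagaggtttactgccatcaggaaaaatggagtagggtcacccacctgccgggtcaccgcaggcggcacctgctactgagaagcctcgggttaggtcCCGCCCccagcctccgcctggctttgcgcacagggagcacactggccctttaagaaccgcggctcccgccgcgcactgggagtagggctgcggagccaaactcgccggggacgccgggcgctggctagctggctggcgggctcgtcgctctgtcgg
Mmp28 (chr11:83462991-83463290, minus strand): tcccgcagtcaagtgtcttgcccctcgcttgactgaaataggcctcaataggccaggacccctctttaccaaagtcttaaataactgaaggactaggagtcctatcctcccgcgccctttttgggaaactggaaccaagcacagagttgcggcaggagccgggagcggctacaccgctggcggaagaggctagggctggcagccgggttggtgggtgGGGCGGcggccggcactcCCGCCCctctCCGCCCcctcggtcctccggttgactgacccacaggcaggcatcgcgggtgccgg
Mmp10 (chr9:7502092-7502391, plus strand): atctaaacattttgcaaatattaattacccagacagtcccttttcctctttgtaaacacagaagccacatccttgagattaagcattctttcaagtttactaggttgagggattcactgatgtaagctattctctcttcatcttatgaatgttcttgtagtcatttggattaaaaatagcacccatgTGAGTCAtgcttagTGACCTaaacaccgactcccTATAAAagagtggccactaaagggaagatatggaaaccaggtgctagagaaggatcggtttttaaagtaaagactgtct
Mmp3 (chr9:7445572-7445871, plus strand): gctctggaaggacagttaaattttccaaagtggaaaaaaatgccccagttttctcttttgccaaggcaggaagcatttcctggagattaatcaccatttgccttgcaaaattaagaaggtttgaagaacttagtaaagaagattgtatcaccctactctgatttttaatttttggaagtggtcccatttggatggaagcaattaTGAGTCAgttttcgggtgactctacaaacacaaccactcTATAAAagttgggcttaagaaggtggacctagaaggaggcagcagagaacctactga
Mmp23 (chr4:155653241-155653540, minus strand, the first of its RefSeq windows): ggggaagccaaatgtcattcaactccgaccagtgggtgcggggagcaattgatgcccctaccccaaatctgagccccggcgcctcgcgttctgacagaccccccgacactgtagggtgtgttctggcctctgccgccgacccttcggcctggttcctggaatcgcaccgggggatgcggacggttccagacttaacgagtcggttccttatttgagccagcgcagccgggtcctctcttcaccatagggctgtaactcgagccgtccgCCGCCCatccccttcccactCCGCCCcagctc
The window of Mmp15 had its GC box at position -106 from the start and that of Mmp28 had GC boxes at -33, -15 and -5. The windows of Mmp10 and Mmp3 had no GC box, and their AP-1 motifs lay at -63 and -46. The half-site of Mmp10, read on the other strand, lay at -49.

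Each library held between 48791602 and 59818887 estimated counts. Counts of at least 10 in enough libraries left 36 of the 46 members in the comparison (16 MMPs, 17 ADAMTS genes and 3 TIMPs), among 18174 genes tested. Mmp1a, Mmp1b and Mmp21 had 0 counts in all 8 libraries, which allows at most 0.0628 CPM (3 counts in a library, counting error only). Mmp8, Mmp20, Mmp24, Mmp27, Adamts18, Adamts20 and Timp4 had at most 24 counts in any library and were not tested. Mmp8 is a collagenase stored in neutrophil granules, and Timp4 was at 0 in 5 of 8 libraries. The epithelial markers Krt8, Krt18 and Epcam and the uterine stromal genes Hoxa10 and Hoxa11 were detected in every library.

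Levels between genes were compared on the deposited TPM values, which are per length. Mmp11, or stromelysin-3, had the highest mean, with 433 ± 238 TPM (SD, n = 4) in Thra1PV/+ and 272 ± 191 TPM in WT endometrium. Mmp14, the membrane-type enzyme that activates MMP2, followed with 211 ± 46.2 and 209.5 ± 73.4 TPM. Mmp7 (matrilysin, an epithelial enzyme) had 180 ± 139 and 235 ± 197 TPM. Mmp2 (gelatinase A, made by stromal cells) had 119 ± 72.7 and 157 ± 90.6 TPM. Neighbours in this order overlapped over the libraries, and the 4 together made up 82.9% to 92.3% of the summed MMP level in Thra1PV/+ and 75.7% to 90.9% in WT libraries. The summed MMP level was 1063 ± 312 TPM in Thra1PV/+ and 1015 ± 379 TPM in WT endometrium, which overlapped. The summed ADAMTS level was lower than that of the MMPs in every library, at 56.8 ± 9.64 and 79.1 ± 22.9 TPM. The summed TIMP level was 142.5 ± 85.8 and 181 ± 139.9 TPM. The ratio of summed MMP to summed TIMP level ran from 2.95 to 13.9 in Thra1PV/+ and from 3.07 to 14.9 in WT libraries, almost the same range, and the lowest ratio of either genotype was in its library 1.

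**Figure D1:**
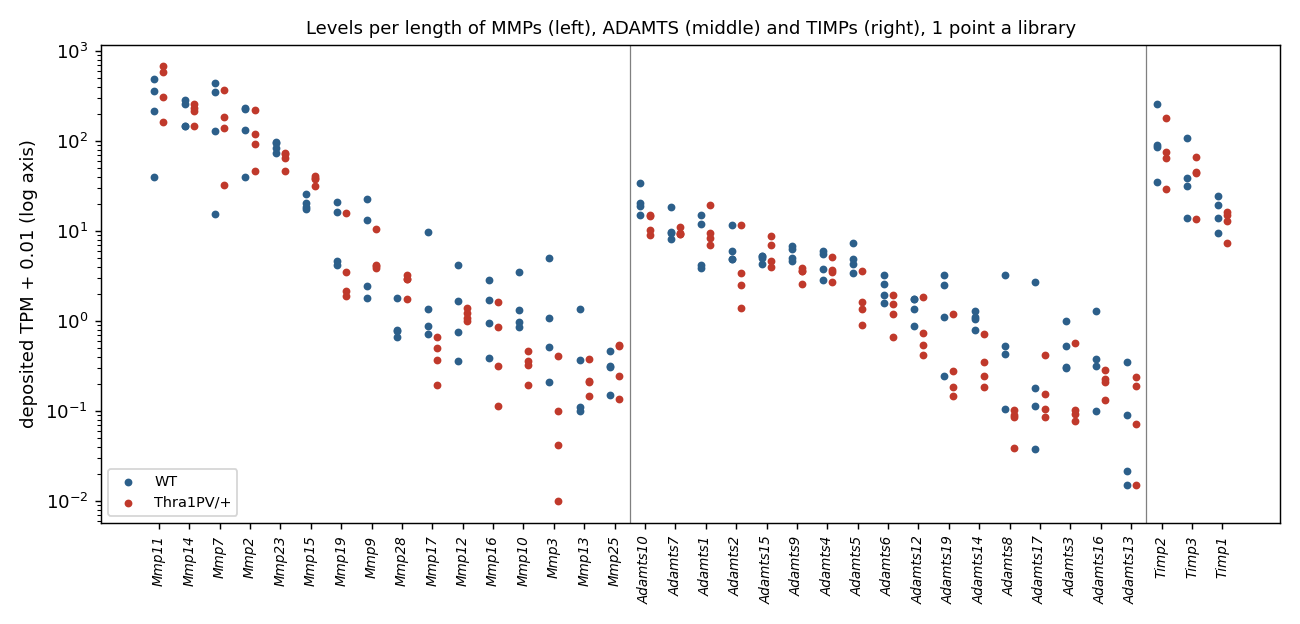
Deposited TPM plus 0.01 on a log axis for each member with a mean of at least 0.1 TPM, 1 point a library, blue for WT and red for Thra1PV/+, in the order of mean level within each family. Mmp11, Mmp14, Mmp7 and Mmp2 stand at the top of the MMPs and Timp2 at the top of the TIMPs. The points of Mmp15, Mmp10, Mmp23, Mmp17, Adamts8, Adamts9 and Adamts14 separate by genotype, those of Mmp23, Mmp17 and Adamts8 only narrowly. Of these, Mmp17, Adamts8, Adamts9 and Adamts14 overlap in CPM. Mmp28 and Adamts10, which do not overlap in CPM, overlap slightly in TPM.

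A member was called where edgeR's quasi-likelihood test gave a fold change of 2 or more at an adjusted p of 0.1 or less. By this rule 0 of 36 members were called, where 0.99% of all genes tested were (0.924% as higher and 0.066% as lower). At an unadjusted p under 0.05, edgeR gave 11 of 36 members (30.6%), of which 2 were higher and 9 lower in Thra1PV/+ endometrium, where 9.77% of all genes passed (5.05% higher and 4.72% lower). The higher members were Mmp15 and Mmp28, and the lower ones were Mmp3, Mmp10, Mmp17, Mmp23, Adamts5, Adamts8, Adamts9, Adamts10 and Adamts14. DESeq2 called 4 of the 42 members with a p-value, where it called 3.58% of all genes with an adjusted p. These were Mmp28 as higher and Mmp3, Mmp10 and Adamts8 as lower. limma voom with sample quality weights called 3 of 36 members, Mmp10, Mmp28 and Adamts14, where it called 1.71% of all genes. The libraries of the genotypes did not overlap for 5 of 36 members (13.9%), against 6.04% of all genes: Mmp15 and Mmp28 as higher (3.55% of all genes) and Mmp10, Mmp23 and Adamts10 as lower (2.49%). The log2 fold change was below 0 for 29 of 36 members and had a median of -0.53, where it was below 0 for 56.8% of all genes with a median of -0.05. WT library 1 stood apart from the others in smooth muscle transcripts, as given further on. Without it, 8 of 37 members passed the unadjusted p, 6 of them lower, against 8.93% of all genes. The 95% interval of the log2 fold change lay within -1 to 1 for 4 of 36 members, against 8738 of all 18174 genes tested. The intervals of the other members reach past a 2-fold difference.

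**Figure D2:**
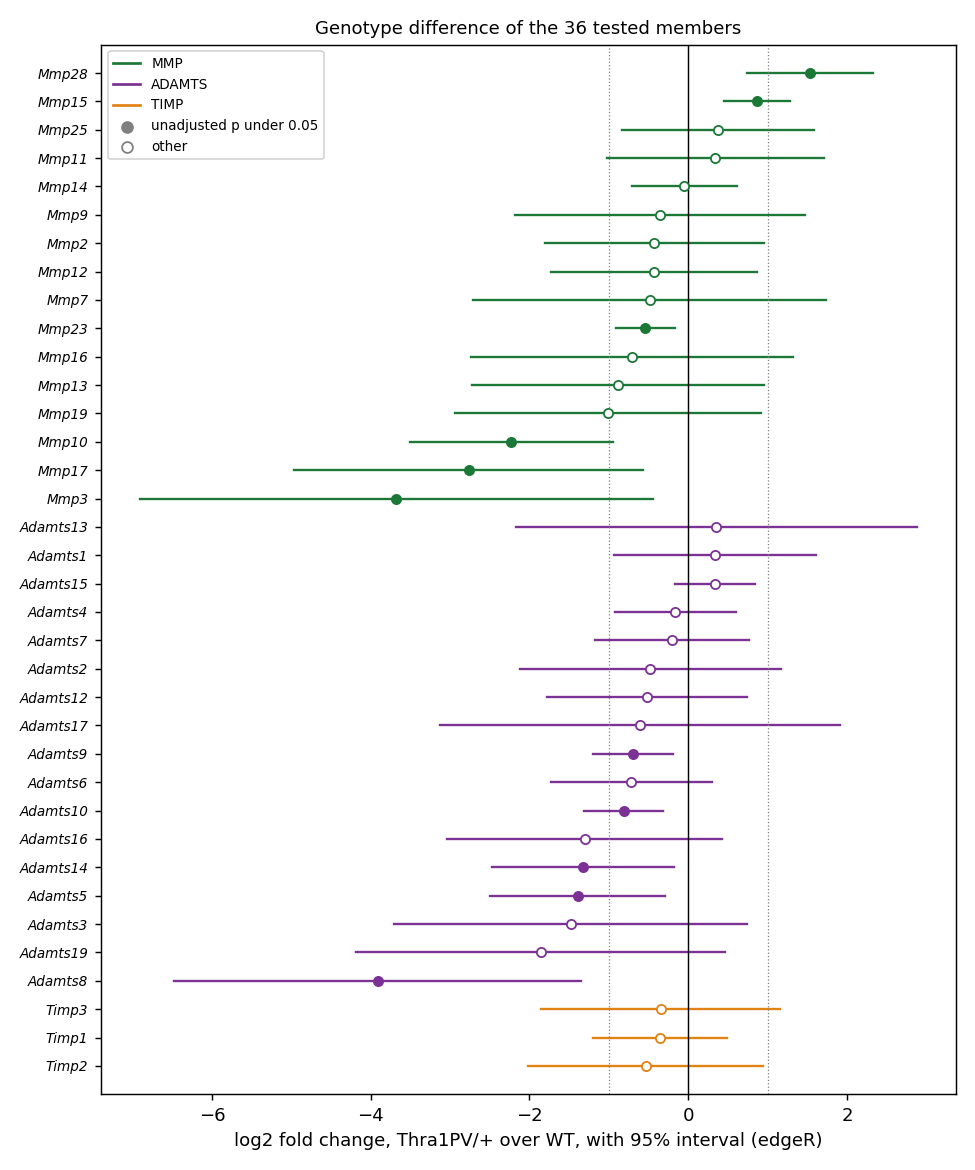
Log2 fold change of Thra1PV/+ over WT with its 95% interval from edgeR for the 36 tested members, by family, with filled points for an unadjusted p under 0.05 and dotted lines at 2-fold. Mmp28 and Mmp15 lie above 0 and 9 filled members lie below it, with the widest interval of these at Mmp3.

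Mmp15 and Mmp28 were the members with higher values in every Thra1PV/+ library. Mmp15 (ENSMUSG00000031790.8, chromosome 8, 95352268 to 95375080) encodes MT2-MMP, a membrane-type enzyme. It had 120.1, 153, 151 and 153 CPM in Thra1PV/+ libraries 1 to 4 and 63.7, 67.5, 82.3 and 103 CPM in WT libraries 1 to 4. The genotypes did not overlap, and the lowest Thra1PV/+ library was library 1 and the highest WT library was library 4. edgeR gave a log2 fold change of 0.86 (SE 0.18, 95% interval 0.45 to 1.28, edgeR adjusted p = 0.107). The exact permutation test over the 70 arrangements of the libraries (two-sided) gave p = 0.0286, the smallest it can give and the value for any gene without overlap. DESeq2 gave an adjusted p of 0.00498, and the fold of 1.82 was under the minimum of 2. Mmp28 (ENSMUSG00000020682.17, chromosome 11, 83440768 to 83463071) encodes epilysin, a secreted enzyme described in epidermal keratinocytes. It had 5.25, 7.43, 7.46 and 7.34 CPM in Thra1PV/+ libraries and 1.74, 2.06, 1.71 and 4.0 CPM in WT libraries, again in order of library number. No library overlapped, with library 1 lowest in Thra1PV/+ and library 4 highest in WT endometrium, as for Mmp15. This was a log2 fold change of 1.53 (SE 0.35, 95% interval 0.74 to 2.32, edgeR adjusted p = 0.141, DESeq2 adjusted p = 0.000695). Without WT library 4, edgeR called both genes, where it called 0.609% of all genes, with a log2 fold change of 1.02 for Mmp15 (adjusted p = 0.0695) and 1.90 for Mmp28 (adjusted p = 0.0598). Summed markers of stratified squamous epithelium, such as Krt5 and Trp63, came to 2828, 4204, 4380 and 3257 CPM in Thra1PV/+ libraries 1 to 4 and to 1.26 to 64.6 CPM in WT libraries. Of the 9 tested markers on that list, all 9 had a log2 fold change above 0 and showed no overlap, and edgeR called 7 as higher. Library 1 was also the lowest Thra1PV/+ library in this sum and in the simple epithelium sum (2218 CPM against 3931 to 5554 CPM in the others). Among WT libraries, library 3 was the highest in both sums (64.6 and 6195 CPM), and was the lowest for Mmp28 but not for Mmp15. WT library 4, the highest WT library for both genes, had 21.4 and 5881 CPM in these sums. The part of epithelial content in the difference of Mmp15 and Mmp28 was not tested, and in bulk tissue more cells of a type and more RNA per cell cannot be told apart.

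**Figure D3:**
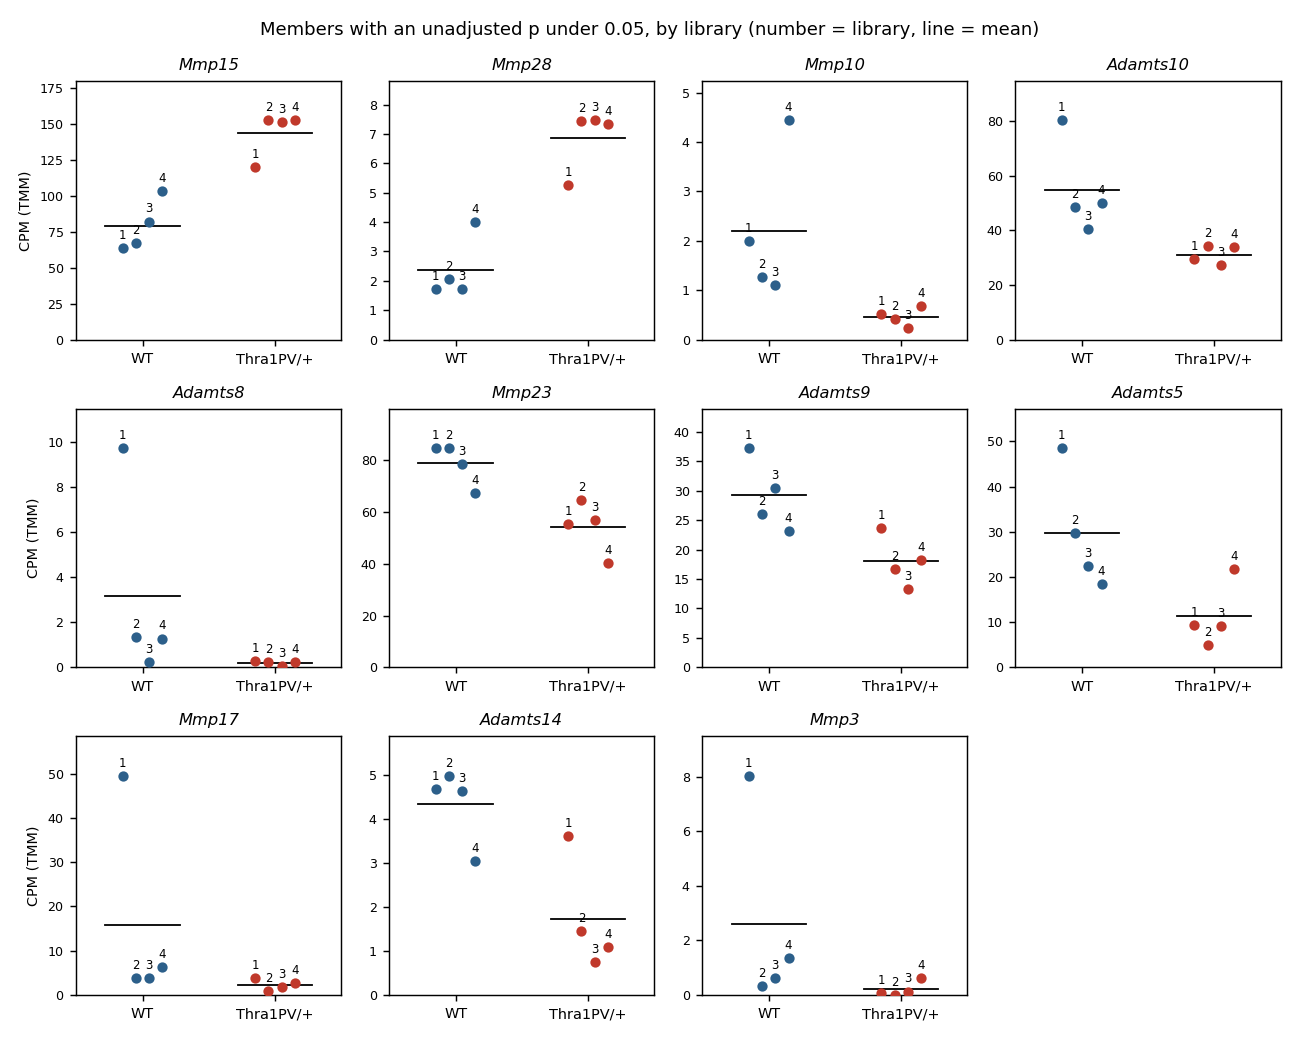
CPM after TMM normalization in each library for the 11 members with an unadjusted p under 0.05, WT in blue and Thra1PV/+ in red, with the library number beside each point, the mean as a line, and each panel's axis starting at 0. Mmp15, Mmp28, Mmp10, Adamts10 and Mmp23 do not overlap, and WT library 1 stands far above the rest for Mmp17, Adamts8 and Mmp3.

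The stromelysins Mmp3 and Mmp10 degrade proteoglycans, laminin and fibronectin and activate other proenzymes, and lie in the cluster on chromosome 9. Mmp10 (ENSMUSG00000047562.3, 7502352 to 7510240) had 0.51, 0.43, 0.25 and 0.68 CPM in Thra1PV/+ libraries 1 to 4 and 2.0, 1.26, 1.11 and 4.44 CPM in WT libraries. All Thra1PV/+ libraries were below all WT libraries, and WT library 4 was the highest. The log2 fold change was -2.23 (SE 0.56, 95% interval -3.51 to -0.95, edgeR adjusted p = 0.196, DESeq2 adjusted p = 0.00459), and without WT library 4 it was -1.64. Mmp3 (ENSMUSG00000043613.8, 7445822 to 7455975) had 0.06, 0, 0.12 and 0.61 CPM in Thra1PV/+ and 8.03, 0.33, 0.62 and 1.36 CPM in WT libraries. The genotypes overlapped, since Thra1PV/+ library 4 was above WT library 2, and WT library 1 was the highest. Its log2 fold change was -3.68 (SE 1.41, edgeR adjusted p = 0.444, DESeq2 adjusted p = 0.0763), -1.89 without WT library 1 and -5.39 without Thra1PV/+ library 4. The transcripts of Mmp3 and Mmp10 share 202 stretches of 31 bases, and 14.6% of those of Mmp3 and 11.9% of those of Mmp10 occur in another gene, so reads there were divided between genes by estimation. Mmp11, the third enzyme named stromelysin, had 229, 211, 457 and 349 CPM in Thra1PV/+ and 321, 44.1, 181 and 439 CPM in WT libraries. The groups overlapped almost wholly, with a log2 fold change of 0.34 (SE 0.60, edgeR adjusted p = 0.906), and WT library 2 was the lowest.

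Of the 10 genes of the chromosome 9 cluster, 5 were tested. Beside Mmp3 and Mmp10 these were Mmp7, Mmp12 (the macrophage metalloelastase) and Mmp13 (a collagenase). Mmp7 had 24.2, 151.5, 309 and 109 CPM in Thra1PV/+ and 112, 12.5, 319 and 389.6 CPM in WT libraries, and the widest spread was within the genotypes. Its log2 fold change was -0.49 (SE 0.97, edgeR adjusted p = 0.921), and 0.0059 without WT library 4. Mmp12 ranged from 1.79 to 2.35 CPM in Thra1PV/+ and from 0.90 to 6.43 CPM in WT libraries. Mmp13, the only tested collagenase, ranged from 0.28 to 0.76 and from 0.22 to 2.49 CPM. WT library 4 was the highest of all libraries for Mmp7, Mmp10, Mmp12 and Mmp13.

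Among the membrane-type MMPs other than Mmp15, Mmp14 had 415, 307, 462 and 521 CPM in Thra1PV/+ and 579.8, 280.0, 325 and 582 CPM in WT libraries. These overlapped, and the log2 fold change of -0.05 (95% interval -0.71 to 0.61, edgeR adjusted p = 0.978) lay within a 2-fold difference either way, and it was 0.15 without WT library 1. Mmp17 (chromosome 5, 129584169 to 129611099), which encodes MT4-MMP, had 3.84, 0.93, 1.84 and 2.70 CPM in Thra1PV/+ and 49.6, 3.88, 3.78 and 6.22 CPM in WT libraries. WT library 1 was far above every other library, and the genotypes overlapped only between Thra1PV/+ library 1 and WT library 3. edgeR gave a log2 fold change of -2.77 (SE 0.96, edgeR adjusted p = 0.384) and -0.96 without WT library 1, and DESeq2 gave no adjusted p. The summed markers of smooth muscle came to 12937 CPM in WT library 1, 568 to 1133 CPM in the other WT libraries and 145 to 675 CPM in Thra1PV/+ libraries. The part of muscle in the value of Mmp17 was not tested. Mmp16 and Mmp25 overlapped between the genotypes, with log2 fold changes of -0.71 (SE 0.89) and 0.38 (SE 0.53).

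Mmp23 (ENSMUSG00000029061.2, chromosome 4, 155650655 to 155653384), an MMP known from reproductive tissue that lacks the usual hemopexin domain, had the highest mean TPM of the 5 members with no overlap. It had 55.3, 64.5, 57.1 and 40.2 CPM in Thra1PV/+ and 84.7, 84.6, 78.7 and 67.4 CPM in WT libraries. Library 4 was the lowest of each genotype. This was a log2 fold change of -0.54 (SE 0.16, 95% interval -0.92 to -0.16, edgeR adjusted p = 0.322), between -0.63 and -0.42 with each library left out in turn. The gelatinases overlapped: Mmp2 had a log2 fold change of -0.43 (SE 0.60) and Mmp9, which is abundant in neutrophils and macrophages, of -0.36 (SE 0.80). Mmp19 had -1.01 (SE 0.84), with Thra1PV/+ library 1 and WT libraries 1 and 2 between 41.8 and 58.8 CPM and the others between 4.71 and 11.8 CPM.

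Of the 17 tested ADAMTS genes, 14 had a log2 fold change below 0, 5 of them at an unadjusted p under 0.05, and 0 had such a p in the other direction. Of all genes, 56.8% were below 0 and 4.72% passed this p as lower. The genotypes did not overlap for 1 of the 17 (5.88%), near the 6.04% of all genes. Adamts10 (chromosome 17, 33524204 to 33553782), which binds fibrillin microfibrils, had the highest mean TPM of the family. It had 29.4, 34.1, 27.2 and 33.8 CPM in Thra1PV/+ and 80.3, 48.6, 40.5 and 49.98 CPM in WT libraries. The genotypes did not overlap, and WT library 1 was the highest. The log2 fold change was -0.82 (SE 0.22, 95% interval -1.31 to -0.32, edgeR adjusted p = 0.235, DESeq2 adjusted p = 0.0714) and -0.53 without WT library 1, and the fold of 1.76 was under the minimum of 2 in DESeq2 as well.

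The aggrecanase and proteoglycanase group, which cleaves aggrecan, versican and brevican, held 3 members with an unadjusted p under 0.05. Adamts8 (chromosome 9, 30942562 to 30963838) had 0.29, 0.22, 0.06 and 0.25 CPM in Thra1PV/+ and 9.73, 1.34, 0.24 and 1.28 CPM in WT libraries. WT library 3 lay among the Thra1PV/+ libraries, and WT library 1 was far above the rest. edgeR gave a log2 fold change of -3.91 (SE 1.12, edgeR adjusted p = 0.280, DESeq2 adjusted p = 0.00354) and -2.15 without WT library 1. Adamts5 (aggrecanase-2, chromosome 16, 85856173 to 85901828) had 9.36, 4.97, 9.13 and 21.8 CPM in Thra1PV/+ and 48.5, 29.6, 22.3 and 18.5 CPM in WT libraries. Only Thra1PV/+ library 4 overlapped with the WT libraries. This was a log2 fold change of -1.39 (SE 0.48, edgeR adjusted p = 0.381) and -1.01 without WT library 1. Adamts1, which lies beside Adamts5 (85793827 to 85803113) and is induced in the ovary around ovulation, had 73.4, 35.1, 31.1 and 25.1 CPM in Thra1PV/+ and 58.9, 44.3, 12.8 and 14.4 CPM in WT libraries. These overlapped (log2 fold change 0.34, SE 0.56, edgeR adjusted p = 0.900), and without Thra1PV/+ library 1 the log2 fold change was -0.050. Adamts9 (chromosome 6, 92772699 to 92943492), a versican-cleaving enzyme, had 23.6, 16.8, 13.4 and 18.2 CPM in Thra1PV/+ and 37.2, 26, 30.4 and 23.1 CPM in WT libraries. Only Thra1PV/+ library 1 and WT library 4 overlapped, at a log2 fold change of -0.70 (SE 0.22, edgeR adjusted p = 0.341). Adamts4 and Adamts15 overlapped, with log2 fold changes of -0.16 (SE 0.33) and 0.33 (SE 0.22).

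Adamts14 (chromosome 10, 61197112 to 61273438), one of 3 procollagen N-proteinases that trim fibrillar procollagens, had 3.62, 1.46, 0.76 and 1.09 CPM in Thra1PV/+ and 4.67, 4.98, 4.64 and 3.03 CPM in WT libraries. Thra1PV/+ library 1 lay among the WT libraries, and WT library 4 lay below the other WT libraries. The log2 fold change was -1.32 (SE 0.50, edgeR adjusted p = 0.437), and without Thra1PV/+ library 1 it was -1.92 (edgeR adjusted p = 0.102). The other 2 of this group overlapped, with log2 fold changes of -0.48 (SE 0.72) for Adamts2 and -1.48 (SE 0.97) for Adamts3. Adamts7, which cleaves cartilage oligomeric matrix protein, had 33.3, 12.5, 17.1 and 16.0 CPM in Thra1PV/+ and 18.1, 41.0, 13.0 and 18.9 CPM in WT libraries, with a log2 fold change of -0.21 (SE 0.42, edgeR adjusted p = 0.924) and of 0.27 without WT library 2. Its highest library was library 1 in Thra1PV/+ and library 2 in WT endometrium. The remaining tested ADAMTS genes (Adamts6, Adamts12, Adamts13, Adamts16, Adamts17 and Adamts19) overlapped, with log2 fold changes from -1.86 for Adamts19 to 0.35 for Adamts13.

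The 3 tested TIMPs overlapped between the genotypes. Timp2 had 409, 75.9, 170.2 and 189 CPM in Thra1PV/+ and 667, 210.2, 97.7 and 249 CPM in WT libraries, with library 1 the highest of each genotype. edgeR gave a log2 fold change of -0.54 (SE 0.65, edgeR adjusted p = 0.852). Timp3, which binds to the matrix and also inhibits ADAMTS enzymes, had 213, 49.4, 163 and 159.5 CPM in Thra1PV/+ and 434, 111, 52.0 and 146 CPM in WT libraries. WT library 1 was again the highest, and the log2 fold change was -0.35 (SE 0.66, edgeR adjusted p = 0.915). Without WT library 1 the log2 fold changes of Timp2 and Timp3 were 0.22 and 0.54. Timp1, the inducible inhibitor, had 8.15, 9.25, 7.32 and 4.03 CPM in Thra1PV/+ and 10.4, 7.71, 5.03 and 13.5 CPM in WT libraries (log2 fold change -0.35, SE 0.37, edgeR adjusted p = 0.827). The ratio of Timp2 to Mmp2 in TPM was 0.625 to 0.832 in Thra1PV/+ and 0.369 to 1.13 in WT libraries. Timp1 and Timp3 overlap Syn1 and Syn3, which lie on the other strand, and the strand setting used in counting is not given in the sources used here.

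Some libraries were high for many members at once. Thra1PV/+ library 1 was the highest of its genotype for 18 of 36 members (50%), against 37% of all genes. Among WT libraries, library 1 was the highest for 17 members (47.2%, all genes 28.2%) and library 4 for 11 (30.6%, all genes 16.1%), whereas library 3 was so for 0 members (all genes 30.7%). Summed stromal fibroblast markers came to 1298 CPM in Thra1PV/+ library 1, 2004 and 1874 CPM in WT libraries 1 and 2, and 229.5 to 656 CPM in the other 5 libraries. The neutrophil marker sum was 74.7 to 722 CPM in Thra1PV/+ and 7.94 to 127 CPM in WT libraries, with Elane at 0 in all 8 libraries and Mpo, Ngp and Camp near 0. The macrophage sum was 304 to 1367 and 541 to 826 CPM, and the endothelial sum was 72.1 to 232 and 113 to 257 CPM. The T cell sum was 13.4 to 36.9 CPM in Thra1PV/+ and 8.99 to 20.4 CPM in WT libraries, the mast cell sum 17.7 to 43.5 and 10.7 to 26.9 CPM, and the uterine gland sum 45.7 to 85.1 and 14.7 to 151 CPM. The simple epithelium sum was 2218 to 5554 and 2237 to 6195 CPM. Each of these sums overlapped between the genotypes, and the smooth muscle sum did so as well. All 8 smooth muscle markers had an unadjusted p under 0.05 as lower, as did 1 of 8 stromal fibroblast markers, all 8 of which had a log2 fold change below 0 (median -1.31). As lower, 1 of 3 tested uterine gland markers also passed this p, as did 4.72% of all genes. As higher, 4 of 6 tested neutrophil markers, 4 of 7 T cell markers and the 1 tested mast cell marker passed it, as did 5.05% of all genes. The macrophage, simple epithelium and endothelial lists had 0 such markers in either direction. edgeR called 0 markers of these lists. With both libraries numbered 1 left out, 13 of 36 members passed the unadjusted p, 11 of them lower, against 10.7% of all genes. The part of tissue content in the members' differences was not tested.

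**Figure D4:**
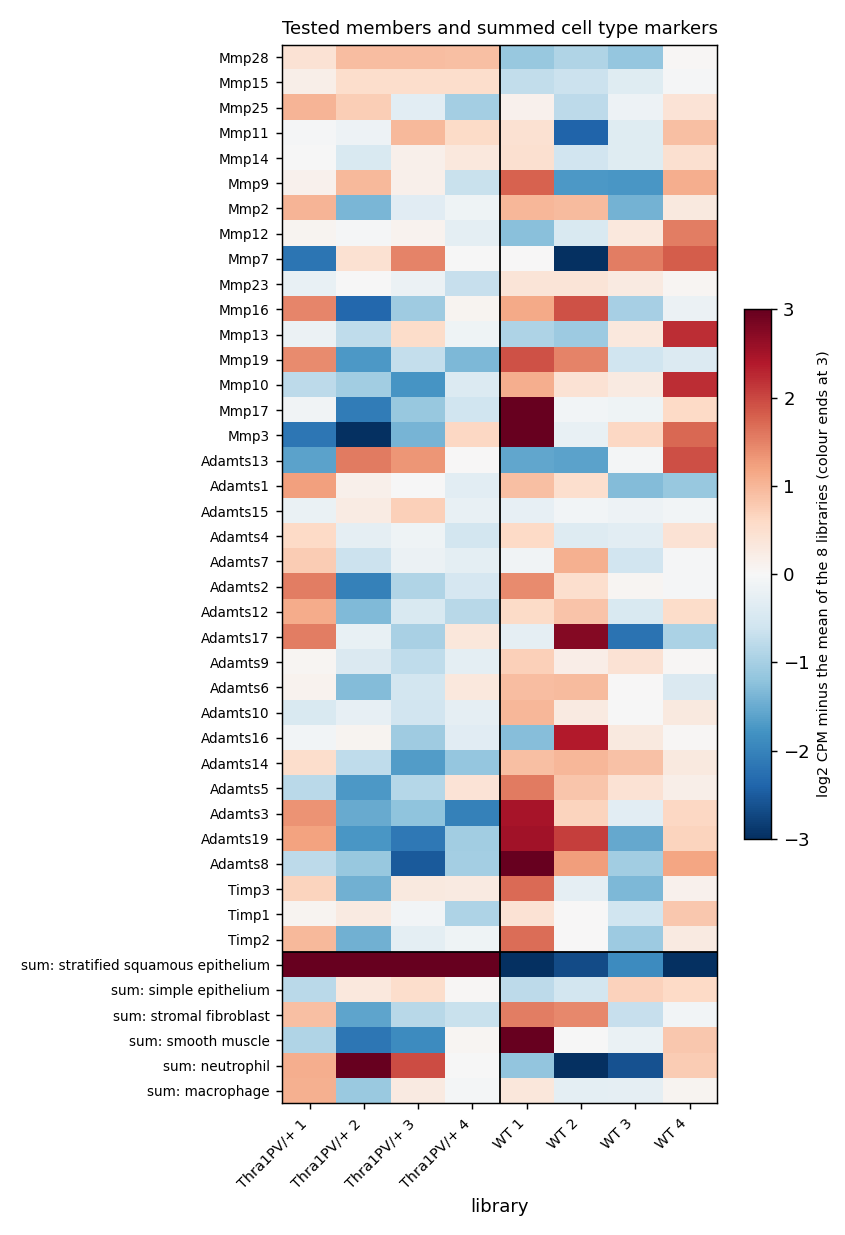
Log2 CPM of the 36 tested members minus each gene's mean over the 8 libraries, ordered by family and log2 fold change, above the log2 sums of 6 marker lists treated the same way, with the colour ending at 3. WT library 1 is high for Mmp17, Mmp3, Adamts3, Adamts8, Adamts19, Timp2 and Timp3 together with the smooth muscle sum. Mmp28 and Mmp15 are high in the 4 Thra1PV/+ libraries with the squamous sum.

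Other genes of matrix proteolysis were counted from 7 lists with 84 genes, of which 73 were tested. Of these, 1 was called by edgeR (background 0.99%), Serpinb2, which encodes the plasminogen activator inhibitor PAI-2. Serpinb2 had 1.41, 1.64, 1.57 and 0.86 CPM in Thra1PV/+ and 0, 0.05, 0.08 and 0.02 CPM in WT libraries. It rose with a log2 fold change of 5.06 (SE 0.73, edgeR adjusted p = 0.0232), a value that rests on at most 4 counts in any WT library. Without WT library 4, and with the replicate block, 0 pathway genes were called. At an unadjusted p under 0.05 there were 10 of 73 genes (13.7%), 5 higher and 5 lower, where 9.77% of all genes passed (5.05% higher and 4.72% lower). The counts by list that follow are at this p and are small. The list of other metalloproteinases had 3 of 11. Adam8 had 40.7 to 178 CPM in Thra1PV/+ and 5.51 to 38.4 CPM in WT libraries, with no overlap (log2 fold change 2.02, SE 0.67, edgeR adjusted p = 0.358). Adam33 had 0.39 to 1.70 and 2.55 to 30.1 CPM, with no overlap in the other direction (log2 fold change -3.28, SE 0.90, edgeR adjusted p = 0.252). The substrates had 1 of 15, Dcn, which encodes the collagen-binding proteoglycan decorin, with 20.3 to 312 CPM in Thra1PV/+ and 365 to 1049 CPM in WT libraries (log2 fold change -2.24, SE 0.74, edgeR adjusted p = 0.355). The ADAMTS-like proteins, which lack the catalytic domain, had 1 of 5, Adamtsl1, with a log2 fold change of -2.65 (SE 0.84, edgeR adjusted p = 0.344). Other inhibitors and regulators such as Reck had 0 of 12. The proprotein convertases, which activate membrane-type MMPs, and the cathepsins had 1 of 9, Ctss (log2 fold change 0.98, SE 0.33, edgeR adjusted p = 0.367). AP-1 subunits and inducing signals had 2 of 14, both ligands: Osm, which encodes the cytokine oncostatin M (log2 fold change 2.98, SE 0.92, edgeR adjusted p = 0.332), and Tgfb1 (log2 fold change 0.70, SE 0.22, edgeR adjusted p = 0.341). No AP-1 subunit of the Fos or Jun families reached an unadjusted p under 0.05. DESeq2 called 6 of the 79 listed genes with a p-value, where it called 3.58% of all genes with an adjusted p. These were Serpinb2, Adam8 and Osm as higher and Adam33, Adamtsl1 and Dcn as lower.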

How the data were processed

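RNA was sequenced from laser-captured endometrium of 4 WT and 4 Thra1PV/+ mice. The authors prepared stranded paired-end mRNA libraries, used Trimmomatic for trimming and salmon for count estimation on mm10, and compared genotypes with DESeq2; versions and the annotation are not given in the sources used here. The deposited estimated counts were not normalized and were rounded to whole numbers. The deposited TPM values were quantile-normalized (after sorting, libraries were within 0.291 TPM of each other throughout), a step missing from the stated methods, and they were used for levels between genes. Of the columns of TPM values, 1 could not be matched to a sample and was not used.

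Genotypes were compared in R 4.3.3 with edgeR 4.0.16 (quasi-likelihood test, filterByExpr with minimum count 10 and total 15, TMM, Benjamini-Hochberg adjustment over all 18174 tested genes, calls at 2-fold and 0.1), after a check on simulated data. CPM values are after TMM, and log2 CPM used a prior count of 2. DESeq2 1.42.0, limma 3.58.1 (voom with quality weights, and log2 of TPM plus 1 or 0.1), other normalizations and filters, the replicate block and leaving out libraries were alternatives. Single values had a two-sided exact permutation test. Named members have an unadjusted p under 0.05, no overlap or a DESeq2 call, or are the 3 highest of their family in TPM. Named pathway genes are the called one and the 8 with the lowest p. Shared stretches of 31 bases were counted in GENCODE M21 transcripts, and promoters are from RefSeq (GRCm38.p6). The members and lists were chosen with earlier results of these data known.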

Additional observations from a re-analysis of the deposited data

Results flagged for a closer look

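Within the 4 libraries of a genotype, 3 of 72 groups held a library set apart from the other 3 (Dixon's ratio of the gap to the range above its 95% critical value), where chance gives about 3.6. Mmp15 was low in Thra1PV/+ library 1, with a ratio of 0.9675 (log2 CPM 6.91 against 7.24 to 7.25 in the others). Mmp28 was low in the same library, with a ratio of 0.9535 (log2 CPM 2.40 against 2.88 to 2.91). Adamts14 was low in WT library 4, with a ratio of 0.8537 (log2 CPM 1.62 against 2.22 to 2.33).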

How the results depend on the processing

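The number of members called, 0 by edgeR (180 of all genes), was 4 by DESeq2 (791 of all genes), 3 by limma voom with quality weights (311), 11 at an unadjusted p under 0.05 with no fold threshold (1775), and between 0 and 2 with a library left out (2 without WT library 4, Mmp15 and Mmp28, with 114 of all genes). The number of pathway genes called, 1 by edgeR, was 6 by DESeq2, 10 at the unadjusted p, 0 with at least 10 counts in every library, 0 on log2(TPM + 1) with or without a filter, and 0 to 1 with a library left out (0 without WT library 4). With the replicate block, 0 members and 0 pathway genes were called (82 of all genes). The deviations of libraries with the same number had correlations of mixed sign (0.27, -0.44, 0.34 and -0.16). The numbers were not taken as pairs, although these values cannot settle whether such libraries share an origin. Of 397 alternative values for the 19 named members, 372 kept their direction and side of the threshold, 9 passed it newly and 16 changed sign. Mmp14 was 0.026 with library size only, 0.0487 on log2(TPM + 1) with or without the filter, 0.0491 on log2(TPM + 0.1), and 0.15 without both libraries numbered 1. Mmp7 was 0.26 with voom, and Timp3 was 0.30 without both libraries numbered 1. With 1 library left out, the log2 fold change ranged from -0.19 to 0.15 for Mmp14, -1.13 to 0.0059 for Mmp7, -0.0499 to 0.83 for Adamts1, -1.04 to 0.22 for Timp2, -0.65 to 0.54 for Timp3 and -0.53 to 0.27 for Adamts7. The cause of these changes was not tested. Leaving out both libraries numbered 1 was chosen after the data were seen.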
